A study of Mus musculus with 14 samples.

Results

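Mature luminal (ML) cells and luminal progenitor (LP) cells are the CD61- and CD61+ fractions of the CD29lo CD24+ luminal epithelium of the mouse mammary gland. Here their microRNAs (miRNAs) were compared in 3 ML and 3 LP samples, 6 of the 14 samples profiled. The comparison covered 349 of 584 miRNA probes, namely those with a normalized value of at least 2 in at least 3 of the 6 luminal samples. All samples came from freshly isolated, untreated cells of adult FVB/N mice, sorted by flow cytometry from pooled animals, and ML and LP samples 1, 2 and 3 came from the same 3 mouse pools. The remaining samples were 4 of the mammary stem cell (MaSC)/basal population and 4 of stroma. The labels give all 4 stroma samples the same mouse pool, so they are repeats of 1 pool. These remaining samples entered the normalization and the estimate of the spread. Each miRNA was read by a TaqMan PCR assay on array plate A or B, as the cycle threshold (Ct), the cycle at which its product becomes visible. The values given are log2 expression values, higher for more miRNA, and 1 unit is a factor of 2. Probes of different miRNAs differ in assay efficiency, so levels are compared only between samples for the same probe.

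miRNAs are short RNAs, cut from hairpin precursors, that guide the silencing machinery to mRNAs. Recognition rests mostly on the seed, bases 2 to 8 from the 5′ end, so miRNAs with a common seed form a family. One strand of the hairpin, the guide, usually persists, and the other, the passenger strand (marked with an asterisk), is mostly degraded. In the mammary gland the luminal progenitors are thought to feed the alveolar and ductal lineages, and mature luminal cells include most of the cells that express the estrogen and progesterone receptors.

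The first set of sequences shows miRNAs of the results that follow, all called and measured in every luminal sample. Some other probes, such as miR-135a, miR-382 and miR-125b-3p, differed by more. They are printed from RefSeq (mouse build GRCm38.p6) with the seed in capitals. The first 5 were higher and the last pair, both strands of 1 hairpin, were lower in ML cells.
miR-21: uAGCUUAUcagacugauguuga
miR-184: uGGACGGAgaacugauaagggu
miR-592: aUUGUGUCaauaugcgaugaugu
miR-133b: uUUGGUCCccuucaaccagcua
miR-206: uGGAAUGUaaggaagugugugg
miR-146b: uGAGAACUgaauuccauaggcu
miR-146b*: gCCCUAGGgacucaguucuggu

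The gene of miR-21 (chr11:86584120-86584141, minus strand) lies within the span of the protein-coding gene Vmp1, and that of miR-592 (chr6:27936711-27936733, minus strand) within the span of the glutamate receptor gene Grm8. No other gene of the RefSeq table spans miR-184 (chr9:89802263-89802284, minus strand). Both miR-206 (chr1:20679055-20679076) and miR-133b (chr1:20682834-20682855) lie on the plus strand inside the long non-coding RNA gene Lincmd1. Both strands of miR-146b (chr19:46342790-46342811 and chr19:46342828-46342849, plus strand) lie inside the span of the non-coding RNA gene Gm36493.

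The second set shows seed families in which the members did not all do the same. Members of the let-7 family (seed GAGGUAG) were higher in ML cells or not called, miR-204 and miR-211 moved in opposite directions, and miR-148b went against miR-148a and miR-152.
let-7a: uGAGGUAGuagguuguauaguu
let-7e: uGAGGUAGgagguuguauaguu
let-7b: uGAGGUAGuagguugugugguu
miR-98: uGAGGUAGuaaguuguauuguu
miR-204: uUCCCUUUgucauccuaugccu
miR-211: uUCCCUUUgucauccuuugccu
miR-148a: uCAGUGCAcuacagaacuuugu
miR-148b: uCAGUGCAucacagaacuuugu
miR-152: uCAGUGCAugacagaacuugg

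Counted from 1 at the 5′ end, miR-211 differs from miR-204 by 1 base (A17U), and miR-98 differs from let-7a by 2 bases (G11A and A19U). All of these lie outside the seed.

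The luminal samples held 338 to 349 detected assays in LP and 352 to 362 in ML cells. The 9 luminal and epithelial markers (the miR-200, miR-183 and miR-375 group) were all measured in all 6 samples. Their summed level was 27.59 to 27.69 in LP, 27.49 to 28.39 in ML and 20.66 to 21.61 in stroma samples. In MaSC/basal samples 1 to 3 it was 26.85 to 27.29. The list thus set the luminal samples far above stroma but only slightly above MaSC/basal samples. The 6 MaSC/basal markers summed to 24.68 to 24.93 in LP and 24.24 to 24.59 in ML samples, against 28.95 to 29.82 in MaSC/basal samples 1 to 3. Blood cell markers (5 of 6 probes measured, miR-486 undetected) lay at 21.17 to 21.49 in LP and 21.17 to 21.50 in ML samples. The endothelial markers miR-126-3p and miR-126-5p summed to a higher level in ML (24.10 to 24.78) than in LP samples (23.24 to 23.49). The library labelled MaSC/basal 4 stood apart from its group, at a root mean square distance of 2.79 to 3.07 log2 units from MaSC/basal 1 to 3 of 1.73 to 2.07 from the LP samples and of 1.52 to 1.74 from the ML samples. As the only sample of its mouse pool it is absorbed by its own pool term, so it does not enter the ML minus LP differences, although the normalization was run over all 14 samples.

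Of the 349 probes, 138 (39.5%) differed between ML and LP cells at an adjusted p under 0.05 in limma, of which 66 (18.9%) were higher and 72 (20.6%) lower in ML cells. In sorted bulk samples, a change in the share of cells that hold a miRNA and a change in its amount per cell cannot be told apart. All 138 had the same sign in all 3 mouse pools. In 117 of them the ML and LP values did not overlap, against 152 (43.6%) of all 349 probes, 70 (20.1%) with every ML value above and 82 (23.5%) with every ML value below the LP values. With any 1 luminal sample left out, 84 of the 138 kept the call in every case and 54 lost it at least once. A difference of 1 log2 unit or more was reached by 34 of the higher and 48 of the lower probes. The median difference over all probes was -0.03. Among probes detected in every luminal sample the median standard error (SE) of the difference was 0.25, and among the 33 probes with at least 1 undetected luminal sample it was 1.5. Of the 138, 126 were detected in all 6 luminal samples.

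**Figure D1:**
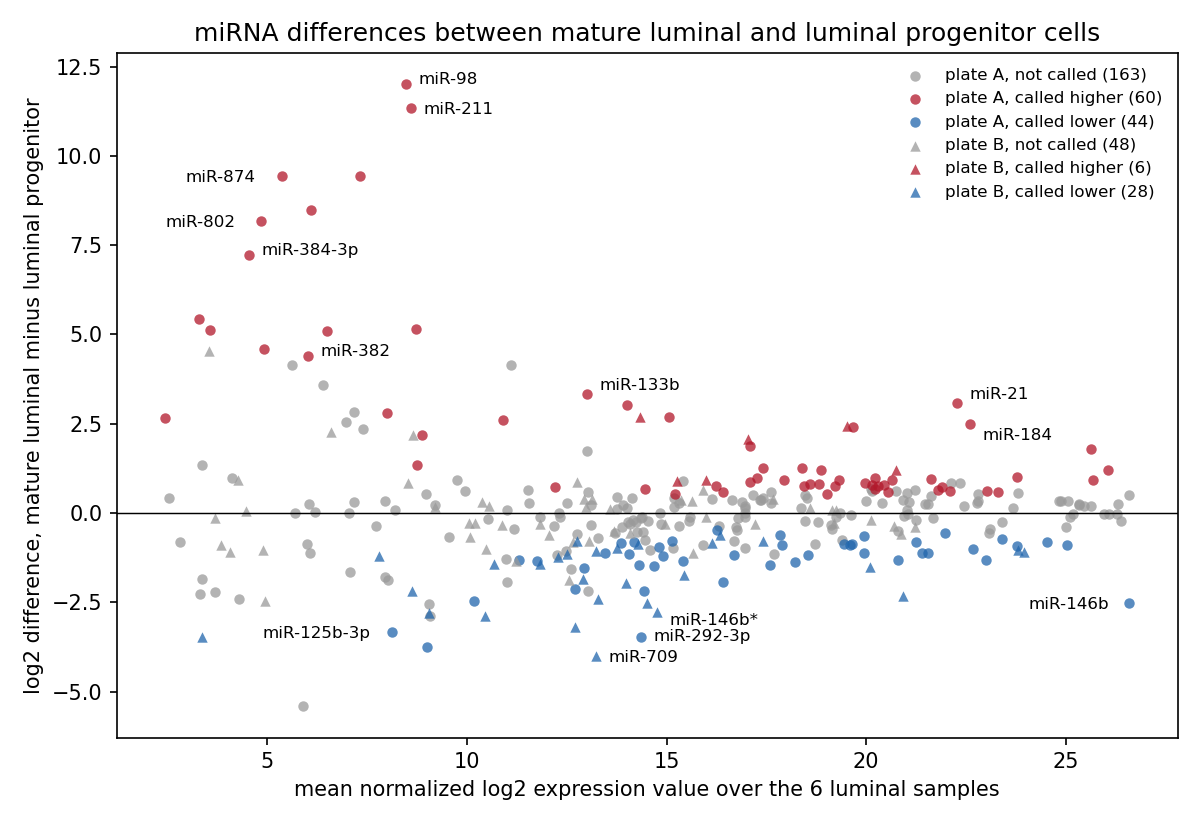
Log2 difference (ML minus LP) of the 349 probes against their mean normalized log2 value over the 6 luminal samples; circles are plate A, triangles plate B, red and blue mark probes called higher and lower. The largest differences, up to 12.01 for miR-98, belong to probes of low mean level, while miR-21, miR-184 and miR-146b differ at high level.

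The direction of these counts depended on the scaling. With Ct values left without normalization, 48 probes were called, 42 higher and 6 lower, and the median difference over all probes rose to 0.68. With U6 of each plate as the reference it was 0.30, with 89 higher and 35 lower, so that 71.8% of calls were higher rather than 47.8%. Centring each sample on its median gave 67 higher and 75 lower. The 6 lower probes called without normalization were miR-146b, miR-146b*, miR-125b-3p, miR-702, miR-706 and miR-709, a group listed after its values were seen. The fit also borrowed the spread from all populations, including the stroma samples of 1 mouse pool. With the 9 epithelial samples of the luminal mouse pools, which leave 4 residual degrees of freedom, 103 probes were called (49 higher, 54 lower). With the 6 luminal samples alone, which leave 2 residual degrees of freedom, 26 probes passed (18 higher, 8 lower) and 140 had an unadjusted p under 0.05. Among these 26 were miR-382, miR-21, miR-184, miR-375, miR-592, miR-133a, miR-133b and miR-206 on the higher side. On the lower side they included miR-146b, miR-146b*, miR-326, miR-322* and miR-292-3p. Also among the 26 were miR-98 and miR-211, but these passed the value filter only with their ML samples, so their calls carry no weight here. Without the mouse pool as a block, 47 probes were called over 14 samples and 109 once the library labelled MaSC/basal 4 was left out.

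**Figure D2:**
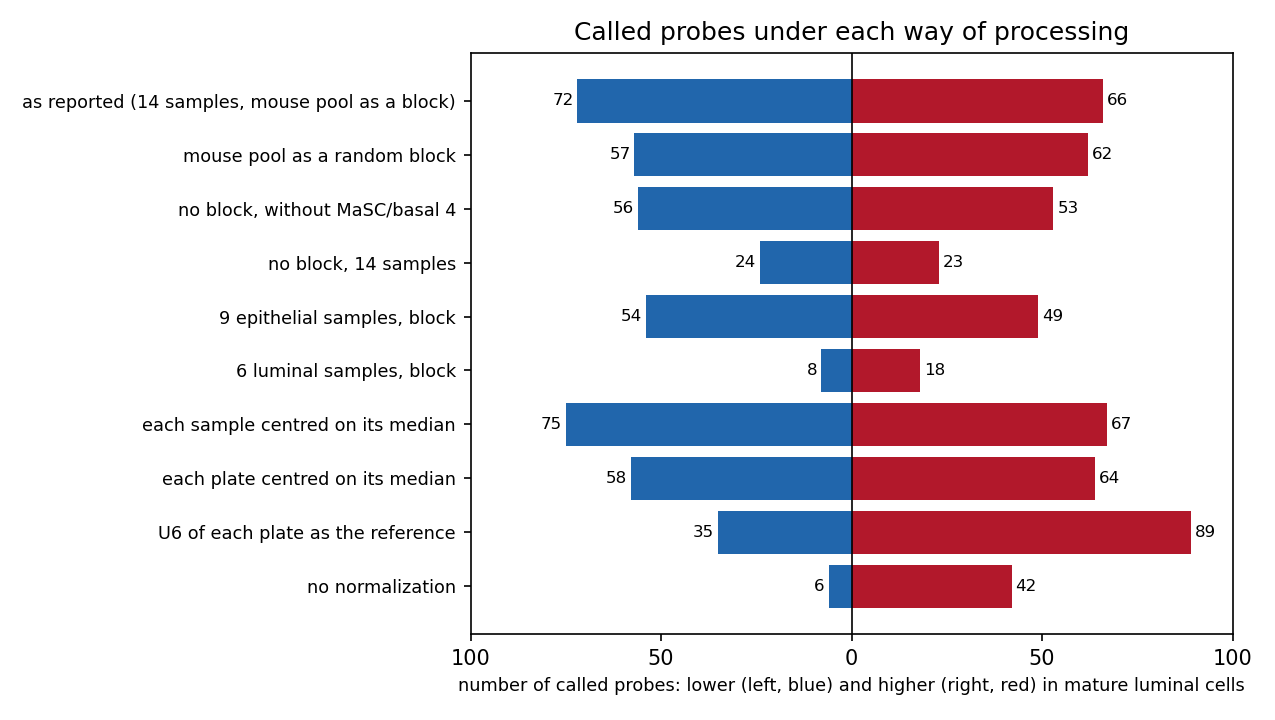
Number of probes called lower (blue, left) and higher (red, right) in ML cells under 10 ways of processing and fitting. Bars run from 72 lower and 66 higher as reported to 8 and 18 with the luminal samples alone, and to 6 and 42 without normalization.

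miR-21, a widely expressed miRNA that is raised in many tumours, showed the largest rise among called probes with a mean value above 20. Its log2 values were 20.88, 20.94 and 20.43 in LP samples 1 to 3 and 23.89, 24.64 and 22.92 in ML samples 1 to 3. Every ML sample lay above every LP sample, by 8.39-fold on average (difference 3.07 ± 0.30 SE, limma adjusted p = 0.00022). miR-184, a miRNA of squamous and corneal epithelia, read 21.51, 21.52 and 20.99 in LP and 24.20, 24.48 and 22.84 in ML cells. It was 5.66-fold higher (2.50 ± 0.24 SE, limma adjusted p = 0.0002), and the smallest of its 3 within-pool differences, in pool 3, was 1.85.

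miR-375, best known from pancreatic islets and also high in estrogen receptor-positive breast cancer, measured 18.42, 18.75 and 18.23 in LP samples. The ML samples gave 21.02, 21.04 and 20.58, again without overlap, and the difference was 2.41 ± 0.32 (SE, limma adjusted p = 0.00074). miR-592 stood at 18.10, 18.73 and 18.04 in LP and 21.13, 21.13 and 19.92 in ML cells. These differences, 5.33-fold for miR-375 and 5.40-fold for miR-592, held in each pool (2.29 to 2.60 for miR-375 and 1.87 to 3.03 for miR-592). Of the epithelial miRNAs grouped with miR-184, miR-203, which restrains stemness in skin by targeting p63, was higher by 0.63 (adjusted p = 0.018, but 0.074 without ML sample 2), and miR-205 was not called (-0.86, adjusted p = 0.23).

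**Figure D3:**
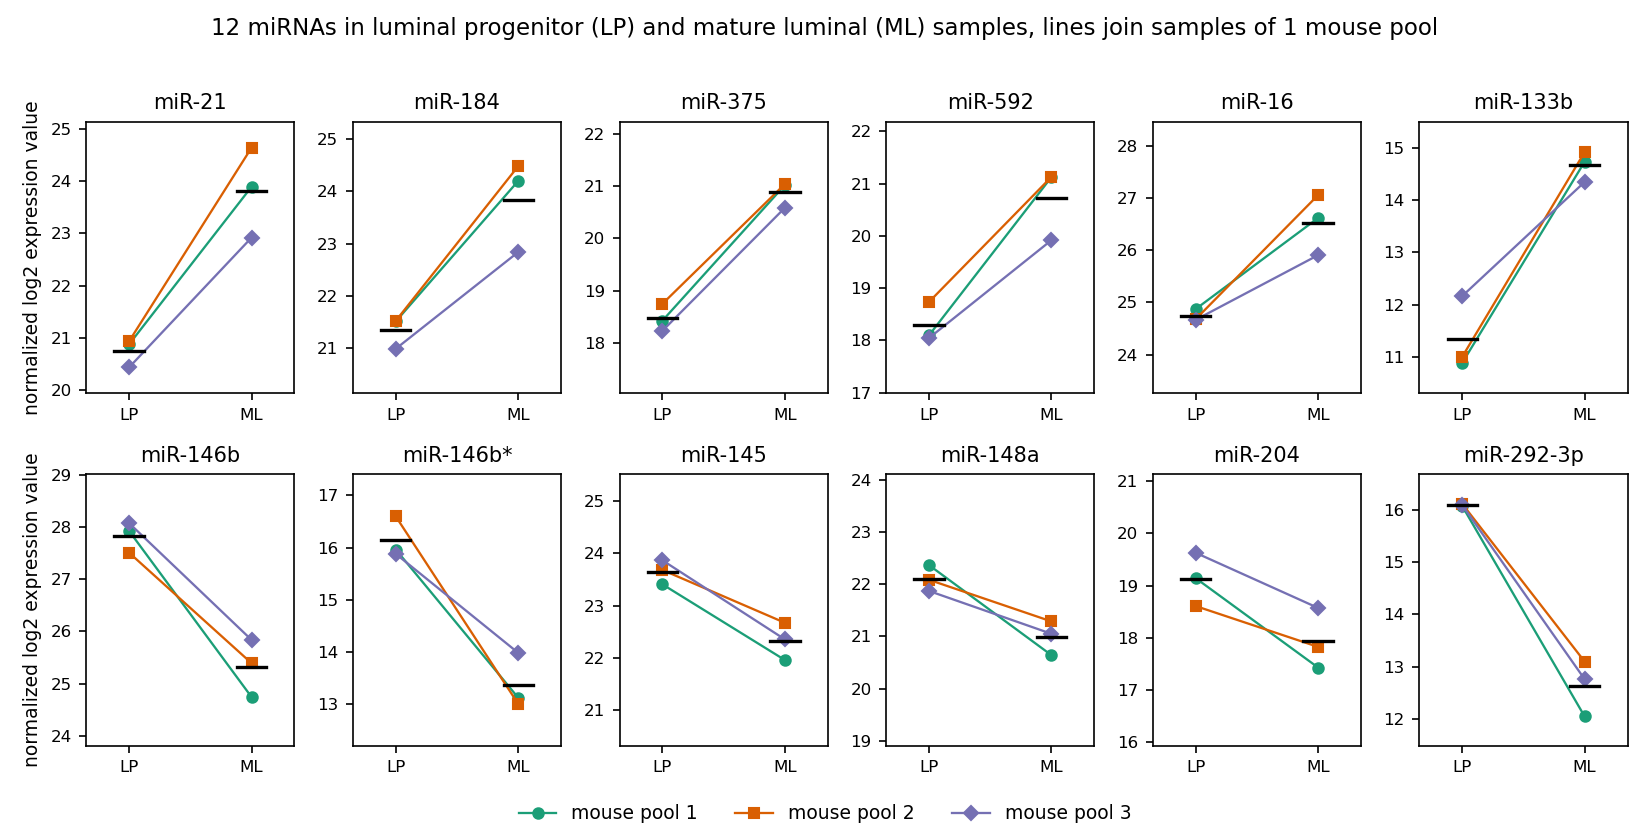
Normalized log2 values of 12 miRNAs in LP and ML samples; lines join samples of the same mouse pool, black bars are means, and every panel spans the same range of log2 units. The 6 upper panels are higher in ML cells, by 1.79 (miR-16) to 3.32 (miR-133b), and the 6 lower panels are lower, by 1.11 (miR-148a) to 3.46 (miR-292-3p).

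The miRNAs known from striated muscle were higher in ML cells, all 5 of 5 measured probes against 18.9% of all probes. Their median difference was 2.70, against -0.03 over all probes. miR-1 and miR-133a are made from shared precursors in heart and skeletal muscle, and miR-206 and miR-133b from a skeletal muscle precursor. The values of miR-133b were 10.88, 11.00 and 12.16 in LP and 14.73, 14.92 and 14.35 in ML samples, a difference of 3.32 ± 0.45 (SE, limma adjusted p = 0.00079). miR-1 read 12.58, 11.86 and 13.03 against 15.86, 15.92 and 14.74 (3.01 ± 0.38 SE, adjusted p = 0.00069). Neither miRNA overlapped between the populations. miR-206 gave 13.03, 13.01 and 12.93 in LP and 16.07, 15.82 and 15.17 in ML samples (2.70 ± 0.58 SE, adjusted p = 0.0069). miR-133a gave 15.98, 15.98 and 16.48 against 17.98, 18.20 and 17.87 (1.87 ± 0.28 SE, adjusted p = 0.0016), and the rat assay for miR-1 differed by 2.67. All 5 stayed called without normalization, where their median was 3.78. With the luminal samples alone 4 of 5 were called (miR-1 was lost), and without the mouse pool as a block 1 of 5 (miR-206).

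The summed level of the striated muscle markers was 16.48 to 16.91 in LP, 18.52 to 19.12 in ML and 22.95 to 23.96 in MaSC/basal samples 1 to 3, and 5 of the 7 probes were measured, with miR-499 undetected in all 6 luminal samples and miR-208 detected in 2 LP and 2 ML samples. miR-206 did not follow this order, with 14.22 ± 0.83 (SD, n = 3) in MaSC/basal samples 1 to 3 between its LP mean of 12.99 and its ML mean of 15.69. The part of other cells in the sorted fractions in these differences was not tested.

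A further set of probes passed from no or little signal in LP to clear signal in ML cells. miR-98, a let-7 family member encoded inside Huwe1 on chromosome X (chrX:151913229-151913250, plus strand), had values of 2.04, 4.53 and 0.83 in LP samples, the last of them undetected. In ML samples it reached 14.99, 13.86 and 14.58, a difference of 12.01 ± 1.58 (SE). miR-211, the Trpm1-encoded relative of miR-204 known from melanocytes (chr7:64205831-64205852, plus strand), read 4.10, 3.69 and 0.98 in LP and 14.78, 15.05 and 12.97 in ML cells. Its difference was 11.34 ± 2.16 (SE), with LP sample 3 undetected. let-7f, one copy of which also lies in Huwe1, was higher by 0.66 (adjusted p = 0.016, but 0.074 without ML sample 2).

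For 5 probes the Ct was 40, that is no signal, in all 3 LP samples and below 40 in all 3 ML samples, so each fold is a lower bound set by the last cycle. miR-874 read 9.99, 10.67 and 9.56 in ML cells, at least 695-fold higher. miR-802, an miRNA raised in obese liver, read 9.66, 8.42 and 8.72, at least 292-fold higher. miR-384-3p read 8.01, 7.62 and 8.79 and was at least 149-fold higher. The other arm of its hairpin, miR-384-5p, was not called (-0.38, limma adjusted p = 0.42). miR-874, miR-802 and miR-384-3p lay far from the floor in every ML sample. The rat assay miR-219-2-3p (5.17, 6.75 and 6.04, at least 42.8-fold) and miR-489, whose gene lies in the calcitonin receptor gene Calcr (5.20, 6.07 and 7.08, at least 34.9-fold), were nearer to it, and neither was called when values under 5.5 were set to 5.5. All 5 became members only through the ML samples in which they are high, so their values are given as a description, with no p. Of all members, 6 reached the value of 2 in ML samples only and 0 in LP samples only. miR-504 and miR-598, named after their values were seen, were detected in 1 of 3 LP samples, differed by 9.44 and 8.49 and also became members through their ML samples. miR-98, miR-211 and miR-135a reached the value of 2 in 2 of 3 LP samples, so they too passed the filter only with their ML samples. Their differences are likewise given as a description, with no p.

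Some probes detected in every luminal sample at modest level also rose. miR-382, a brain-enriched miRNA of the imprinted Dlk1-Dio3 region, read 3.24, 3.34 and 4.89 in LP and 7.44, 7.95 and 9.24 in ML samples. The 3 pools gave like differences (4.20, 4.61 and 4.35), and the fold was 20.9 (limma adjusted p = 0.00015). In contrast, miR-135a had LP values of 8.09, 1.30 and 2.43 against 9.30, 8.81 and 9.04 in ML samples. Its difference of 5.11 ± 1.30 (SE) varied from 1.22 in pool 1 to 7.50 in pool 2. It lost the call without LP sample 2, LP sample 3 or ML sample 2 (4.51). The rat assay miR-219-1-3p (5.15, adjusted p = 0.010), miR-383 (2.79, adjusted p = 0.0016) and miR-330 (2.60, adjusted p = 0.019) were higher without overlap as well. Without ML sample 2 the call was lost for miR-219-1-3p (4.38, adjusted p = 0.058) and miR-330 (2.26, adjusted p = 0.089). Of the 28 measured Dlk1-Dio3 probes, 4 were higher and 1 lower, with a median of 0.00, against 18.9% higher and 20.6% lower of all probes.

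The let-7 family, which restrains proliferation and accumulates as cells differentiate, had 5 of 9 members higher and 0 lower in ML cells (18.9% and 20.6% of all probes), with a median difference of 0.58. let-7e read 25.07, 25.32 and 25.25 in LP and 26.16, 26.56 and 25.68 in ML samples (0.92 ± 0.21 SE, adjusted p = 0.0079). let-7a, with 21.71, 21.73 and 21.18 against 22.39, 22.66 and 21.78, was higher by 0.74 (adjusted p = 0.0069). The lowest ML sample of each lay above the highest LP sample. let-7f and let-7d were called as well (0.66 and 0.58), whereas let-7b, let-7c, let-7g and let-7i were not. miR-98 was the fifth, and it passed the value filter only with its ML samples. Without ML sample 2 let-7d was not called (0.46, adjusted p = 0.13). The family median ranged from 0.39 with median centring, where 1 member was called lower, to 1.21 without normalization. Only 1 of 9 members was called without normalization, and 1 of 9 with the luminal samples alone. In both cases it was miR-98, so let-7a, let-7d, let-7e and let-7f lost their calls under either setting.

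In the miR-15 and miR-16 family (seed AGCAGCA), which targets cell cycle and survival mRNAs such as those of cyclin D1 and Bcl2, 3 of 6 members were higher and 1 lower, against 18.9% and 20.6% of all probes. miR-16 had values of 24.87, 24.68 and 24.67 in LP and 26.61, 27.05 and 25.90 in ML samples. It was 3.45-fold higher (1.79 ± 0.20 SE, limma adjusted p = 0.00042), without overlap. miR-15a (0.93, adjusted p = 0.0052) and miR-15b (0.66, adjusted p = 0.034) were higher too, but miR-497, of the same seed and from another cluster, was lower by 0.88 (adjusted p = 0.0019) and miR-195, its neighbour, and miR-322 (-0.75, adjusted p = 0.069) were not called. The mature miR-16 is made from 2 loci, beside miR-15a in Dleu2 and beside miR-15b in Smc4, which the assay does not separate. The Smc4 cluster (chr3:69009772-69009996, plus strand) also gave the passenger strand miR-15b*, higher by 2.06 (adjusted p = 0.042). That value fell to 1.25 (adjusted p = 0.17) without LP sample 3, and miR-15b fell to 0.47 (adjusted p = 0.16) without ML sample 2.

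The miR-130 and miR-301 family (seed AGUGCAA) had 3 of 4 members higher and 0 lower, against 18.9% higher and 20.6% lower of all probes, and 0 of 4 were called with the luminal samples alone. miR-130b was the steadiest of them, at 16.77, 16.78 and 16.77 in LP and 18.17, 17.98 and 17.95 in ML samples (1.26 ± 0.13 SE, limma adjusted p = 0.00024). Its values sat 2.39-fold apart in tight groups. miR-301a and miR-301b followed with 0.99 and 0.76. Among miRNAs of other roles, miR-155, an immune regulator, stood 2.29-fold higher (adjusted p = 0.0091). miR-10b, which is encoded in the HoxD cluster and linked to invasion, differed by 1.26 (adjusted p = 0.0021). The endothelial miR-126-3p, whose host gene is Egfl7, was higher by 0.996 (adjusted p = 0.014), and without ML sample 2 by 0.74 (adjusted p = 0.074). The other arm of its hairpin, miR-126-5p, was not called (0.665, adjusted p = 0.053). The summed endothelial list moved with the higher group, and its part in the other differences was not tested.

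**Figure D4:**
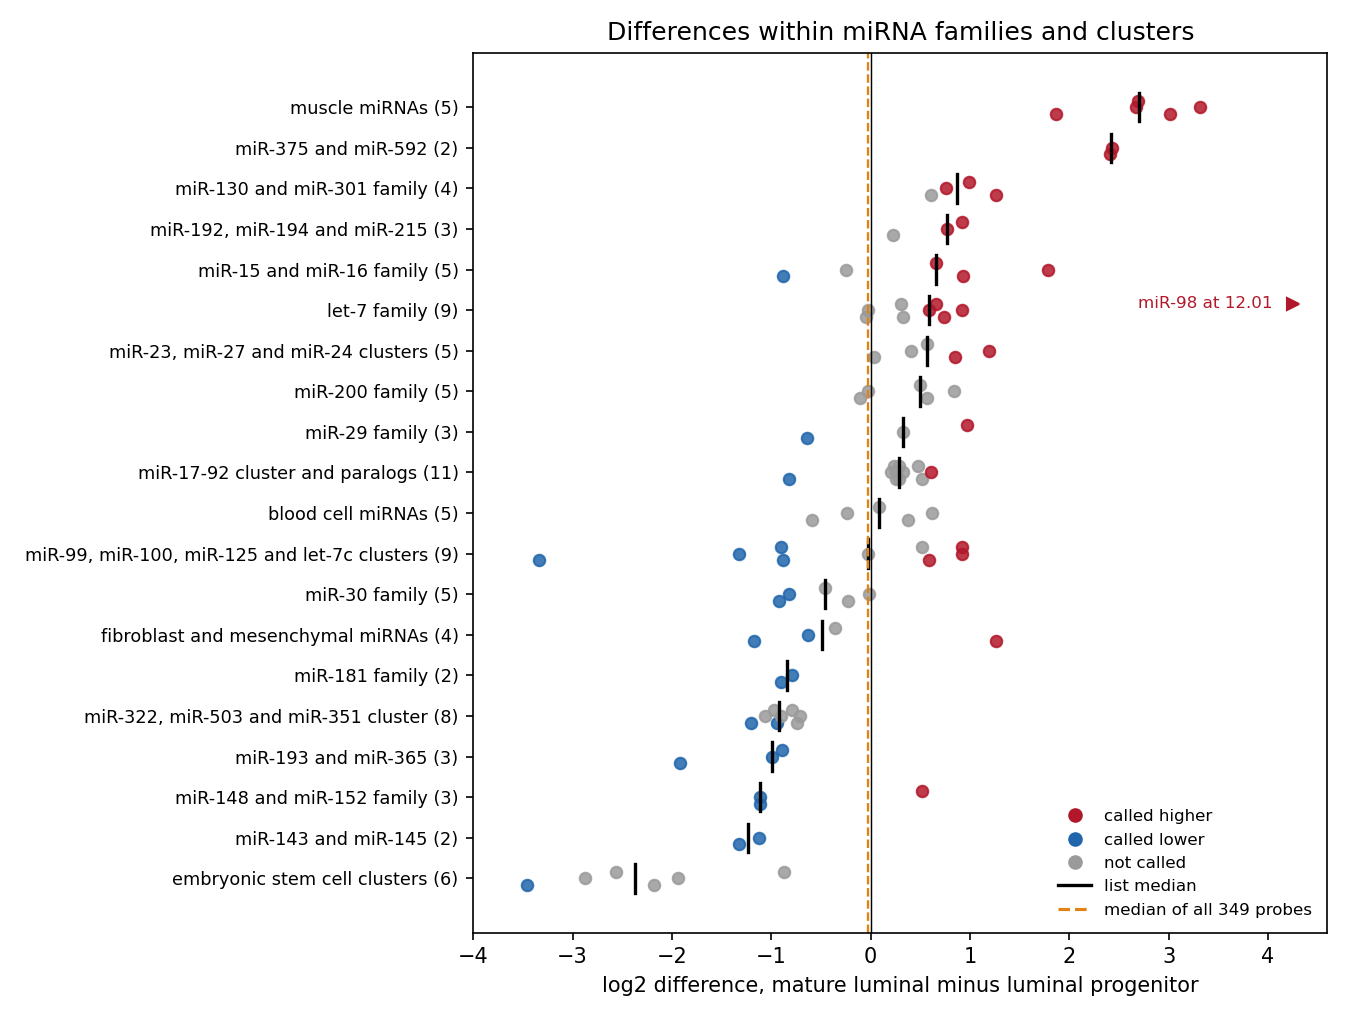
Log2 differences (ML minus LP) of the members of 20 miRNA families, clusters and cell type lists, with the number of measured members in brackets (miR-322, of the miR-15 seed, is plotted with its own cluster); dots are probes, black bars list medians and the dashed line the median of all 349 probes (-0.03). Muscle miRNAs lie highest (median 2.70) and the embryonic stem cell clusters lowest (median -2.37); without normalization the medians of the miR-30, miR-181, fibroblast and miR-99, miR-100 and miR-125 lists turn positive, as do the last of these on the U6 scale.

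On the lower side, miR-146b, a feedback inhibitor of inflammatory NF-kappaB signalling that targets Traf6 and Irak1, showed the largest drop among called probes with a mean value above 20. It read 27.92, 27.51 and 28.07 in LP and 24.74, 25.39 and 25.84 in ML samples, so that LP cells held 5.70-fold more (difference -2.51 ± 0.22 SE, limma adjusted p = 0.00013). Its passenger strand miR-146b* had 15.96, 16.60 and 15.88 in LP and 13.12, 13.01 and 13.98 in ML samples, a 6.84-fold difference (-2.77 ± 0.34 SE, adjusted p = 0.00055). Neither strand overlapped between the populations, and both stayed called without normalization (-2.09 and -2.04). miR-146a, which has the same targets, was not called.

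Of the 6 MaSC/basal markers, miR-143, miR-145 and miR-204 were lower in ML than in LP cells, miR-221 was higher (0.76), and miR-205 (-0.86) and miR-222 (0.13) were not called. Of all probes 20.6% were lower and 18.9% higher. miR-145, a smooth muscle miRNA, measured 23.41, 23.68 and 23.87 in LP and 21.96, 22.67 and 22.35 in ML samples (-1.32 ± 0.18 SE, limma adjusted p = 0.00096). Its cluster partner miR-143 gave 20.55, 20.49 and 20.47 against 19.03, 19.65 and 19.45 (-1.13 ± 0.20 SE, adjusted p = 0.0035). In both cases the ranges were apart. miR-125b-5p, which targets p53 and acts in neural and blood cell differentiation, stood at 21.30, 21.56 and 21.48 in LP and 20.01, 20.42 and 19.95 in ML cells (-1.32 ± 0.15 SE, adjusted p = 0.00045). Its other arm, miR-125b-3p, was lower by 3.34 (adjusted p = 0.0078), a value that shrank to -2.13 without ML sample 1. miR-143 and miR-145 stayed called on the U6 scale (-0.81 and -1.18) but not without normalization (-0.43 and -0.79).

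miR-204, the Trpm3-encoded member of the pair with miR-211 (chr19:22750610-22750631, plus strand), was lower in ML cells. Its values were 19.14, 18.61 and 19.63 in LP and 17.43, 17.82 and 18.57 in ML samples, and the highest ML sample lay just under the lowest LP sample. The difference was -1.18 ± 0.35 (SE, limma adjusted p = 0.024), against +11.34 for miR-211. The call was not kept on the U6 scale (-0.75, adjusted p = 0.14) nor without ML sample 1 (-0.94, adjusted p = 0.11), and it was also lost without LP sample 1, LP sample 3 or ML sample 2. A similar opposition held for miR-135a (+5.11) and miR-135b, which read 14.23, 13.37 and 14.42 in LP and 12.90, 12.46 and 13.30 in ML samples (-1.12, adjusted p = 0.024), although on the U6 scale miR-135b was not called (-0.58, adjusted p = 0.23). Its call was lost with any 1 of the 6 luminal samples left out (highest adjusted p = 0.11, without ML sample 1). The higher members of these pairs, miR-211 and miR-135a, passed the value filter only with their ML samples.

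In the miR-148 and miR-152 family, which targets the DNA methyltransferase Dnmt1, 2 of 3 members were lower and 1 higher, against 20.6% and 18.9% of all probes. miR-148a, abundant in milk and lactating gland, had 22.37, 22.09 and 21.87 in LP and 20.64, 21.29 and 21.05 in ML samples (-1.11 ± 0.20 SE, limma adjusted p = 0.0035). miR-152, from the Copz2 gene, had 22.06, 22.07 and 21.76 against 20.73, 21.32 and 20.51 (-1.11 ± 0.19 SE, adjusted p = 0.0028). Both were 2.16-fold lower, in groups that did not overlap. miR-148b, with the same seed but from the related gene Copz1, was higher in ML cells (0.52, adjusted p = 0.019), a call lost without LP sample 3 (0.42, adjusted p = 0.074), ML sample 2 or ML sample 3.

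All 3 members of the miR-193 and miR-365 list were lower, against 20.6% of all probes. miR-193b and miR-365 share a cluster (chr16:13449523-13453926, plus strand) that has been linked to brown fat, and miR-193 has the seed of miR-193b (ACUGGCC). miR-365 read 23.00, 23.24 and 23.26 in LP and 21.82, 22.44 and 22.25 in ML samples (-0.996, adjusted p = 0.0026), and miR-193b read 25.39, 25.41 and 25.60 against 24.34, 24.73 and 24.66 (-0.89, adjusted p = 0.0060). The LP and ML ranges were apart for both. For miR-193 they overlapped, since pool 3 was low in both populations (15.52 in LP, 14.30 in ML), but the within-pool differences were -2.73, -1.82 and -1.22 (adjusted p = 0.0020). No member of this list was called without normalization, where the median was -0.38.

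The embryonic stem cell clusters, whose miRNAs speed the cell cycle of pluripotent cells, had 6 of 16 probes measured. Of these 1 was called lower, against 20.6% of all probes, and all 6 differences lay below 0, from -3.46 to -0.87. The called member, miR-292-3p, read 16.08, 16.12 and 16.10 in LP and 12.05, 13.10 and 12.76 in ML samples (-3.46 ± 0.71 SE, limma adjusted p = 0.0056). The LP values were nearly identical and all above the ML values. The median of the list, -2.37, became -1.82 without normalization. The miR-322 and miR-503 cluster on chromosome X, linked to cell cycle exit in muscle, had 2 of 8 probes called lower (miR-450a-5p, adjusted p = 0.0039, and miR-542-5p, -0.95) and 0 higher, against 20.6% lower and 18.9% higher of all probes. Neither was called on the U6 scale. miR-542-5p was not called without LP sample 2 (-0.72, adjusted p = 0.12). The median of the cluster, -0.93, moved to -0.08 without normalization.

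Several further probes fell by more than 2 log2 units, most of them without overlap. miR-326, which targets the Hedgehog activator Smo, had 15.60, 16.21 and 15.48 in LP and 13.25, 13.18 and 13.33 in ML samples (-2.52 ± 0.43 SE, limma adjusted p = 0.0028). miR-197 gave 10.96, 11.68 and 11.56 against 9.49, 8.30 and 8.99 (-2.47, adjusted p = 0.0035). In each the 3 ML values stood below all LP values. miR-709 varied more, with 13.14, 15.29 and 17.28 in LP and 12.07, 10.01 and 11.65 in ML samples, so that its drop of 3.99 (adjusted p = 0.0070) ranged over pools from -1.07 to -5.63. miR-801 (-2.32, adjusted p = 0.018) rested on LP sample 3: without it the difference was -1.45 and the adjusted p = 0.057, and without ML sample 2 they were -1.88 and 0.093. miR-124, the main neuronal miRNA, had 9.18, 10.64 and 12.81 against 8.11, 6.59 and 6.64 and was close to the threshold (-3.77 ± 1.31 SE, adjusted p = 0.049; without LP sample 3, -2.72 and 0.18).

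The direction of the passenger strands depended on how the plates were scaled. Of the 82 probes of plate B 34 (41.5%) were called, 28 (34.1%) lower and 6 (7.32%) higher. Of the 267 probes of plate A 104 (39%) were called, 44 (16.5%) lower and 60 (22.5%) higher. Among the 60 passenger-strand probes on plate B, 21 (35%) were lower and 4 (6.67%) higher, with a median difference of -0.55. Among the other 22 probes of plate B, 7 (31.8%) were lower and 2 (9.09%) higher, with a median of -0.68. In 56 guide and passenger pairs of the same hairpin, the median difference was 0.24 for guides and -0.60 for passenger strands, and the passenger strand lay below the guide in 46. When each plate was centred on its own median, the passenger strand lay below the guide in 19 of 56, 12 passenger strands were called higher against 6 lower, and their median turned to 0.26. In all but 1 of the pairs (miR-378) the guide was on plate A and the passenger strand on plate B, so strand and plate cannot be told apart.

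Both strands were called in 10 pairs. They went the same way in 8, higher for miR-15b and miR-27b and lower for miR-146b, miR-181a, miR-214, miR-29c, miR-30a and miR-676, and opposite ways for let-7a and miR-135a. The call of let-7a* (-0.79, adjusted p = 0.049) was lost with any 1 of the 6 luminal samples left out, and its difference turned to 0.02 with each plate centred and 0.01 without normalization. With each plate centred miR-135a* was not called either (-0.70, adjusted p = 0.083). The same held for miR-214* (-0.33, adjusted p = 0.26) and miR-29c* (-0.24, adjusted p = 0.35), of the pairs that went the same way. The passenger strands of miR-15b, miR-27b, miR-146b, miR-181a and miR-676 stayed called, but the guide miR-15b did not (adjusted p = 0.14). The passenger strands of miR-30a and miR-30e, which differ by 1 base (G18A) and share the seed UUUCAGU, are printed because their ML minus LP differences lay close together.
miR-30a*: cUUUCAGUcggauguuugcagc
miR-30e*: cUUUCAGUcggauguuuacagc

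miR-30a* read 24.27, 24.66 and 24.56 in LP and 23.12, 23.49 and 23.63 in ML samples, and miR-30e* 24.003, 24.53 and 24.43 against 22.93, 23.41 and 23.48. Both were lower in all 3 pools (-1.08 and -1.05, limma adjusted p = 0.00045 and 0.00042), but neither was called with each plate centred (-0.27 and -0.24). Of the guides, miR-30a was lower by 0.93 (adjusted p = 0.0060) and miR-30e was not called. miR-322* showed a larger drop, from 14.52, 14.35 and 14.05 in LP to 11.27, 10.66 and 11.41 in ML cells (-3.19 ± 0.74 SE, adjusted p = 0.0095). It remained called with each plate centred (-2.38, adjusted p = 0.033).

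**Figure D5:**
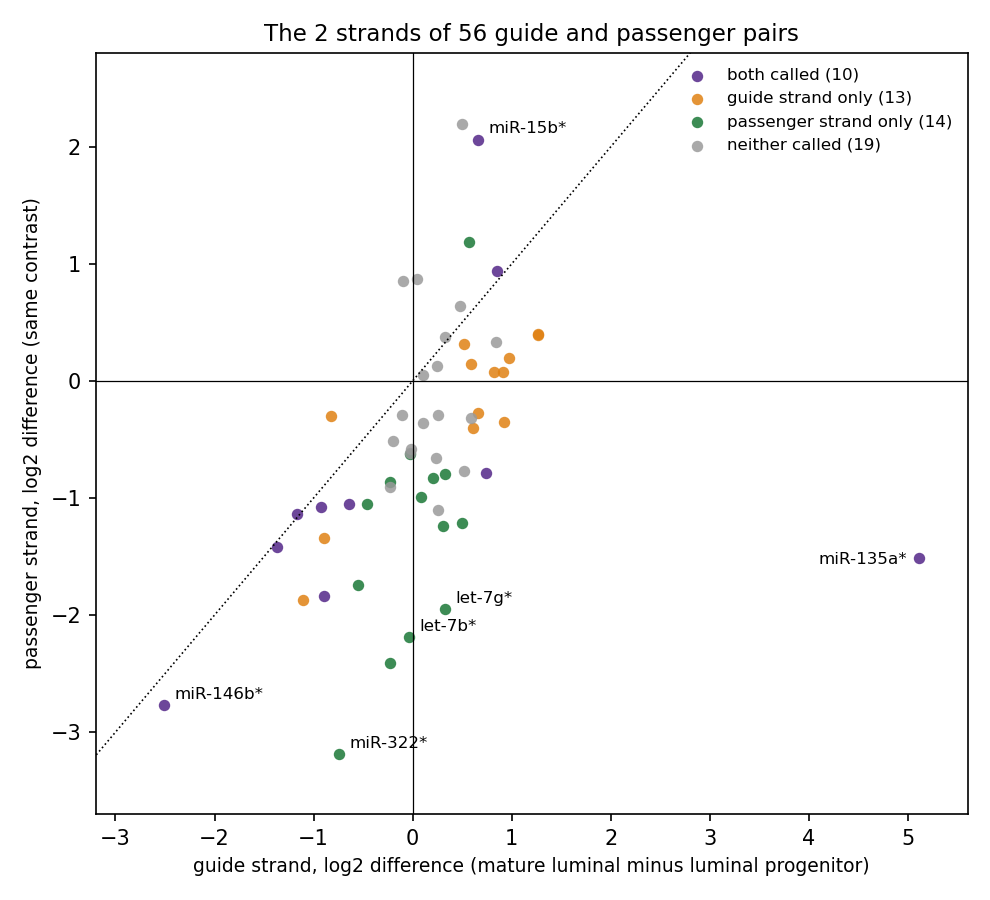
Log2 difference (ML minus LP) of the passenger strand against that of the guide strand in 56 pairs of the same hairpin, coloured by which strand was called; the dotted line marks equal differences. With the deposited normalization 46 of the 56 pairs lie below the line, and with each plate centred on its own median 19 do.

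By position, 280 of the 349 probes could be placed on the RefSeq hairpins of GRCm38.p6, and 36 clusters of hairpins no more than 10 kb apart on 1 strand held more than 1 of them. In 16 clusters at least 2 probes were called, and in 12 of these all calls ran one way. Of all probes 18.9% were called higher and 20.6% lower. The 28 probes made at several loci, such as miR-24, count in each of their clusters. Both strands of 1 hairpin, such as miR-214 and miR-214*, count as separate calls. The clusters are therefore not independent, and the counts do not test whether neighbours change together. miR-206 and miR-133b were both higher (chr1:20679010-20682887). miR-192 and miR-194, which respond to p53, were higher by 0.92 and 0.77 (chr19:6264643-6264932, plus strand), and miR-130b and miR-301b were higher together (chr16:17124061-17124496, minus strand). Within the miR-23b cluster (chr13:63300484-63301275, plus strand) miR-24, miR-27b (0.85, but adjusted p = 0.063 without ML sample 2) and miR-27b* were higher and miR-23b was not called. On the lower side, 3 of 4 probes of the miR-199a and miR-214 cluster (chr1:162217814-162223477, plus strand) were called, against 20.6% of all probes. They included miR-214 (-1.17) and miR-199a-3p (-0.63), although miR-199a-3p turned to 0.07 without normalization. The remaining call, miR-214*, was lost with each plate centred (-0.33, adjusted p = 0.26). On the U6 scale miR-214, miR-214* and miR-199a-3p were not called (adjusted p = 0.051, 0.085 and 0.33). The 4 fibroblast markers, of which miR-214 and miR-199a-3p are members, summed to 19.06 to 19.87 in LP and 19.46 to 19.68 in ML samples.

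In 4 clusters calls ran both ways. miR-29b was higher by 0.97 and miR-29c lower by 0.64 from a shared cluster (chr1:195037040-195037634), with miR-29b also made at another locus. Without normalization miR-29c turned to 0.12, and single samples ended both calls (miR-29b 0.80, adjusted p = 0.089, without ML sample 2; miR-29c -0.50, adjusted p = 0.12, without LP sample 3). Where miR-100 lies beside let-7a-2 (chr9:41531425-41536811), let-7a was higher by 0.74 and miR-100 lower by 0.88. let-7a is made at several loci, which the assay does not separate. Of the 9 probes of the miR-99, miR-100 and miR-125 clusters 3 were higher and 4 lower, against 18.9% and 20.6% of all probes. The higher ones were let-7e (0.92), miR-99b (0.92) and miR-125a-3p (0.59), which come from one cluster, and the lower ones miR-99a, miR-100 and both arms of miR-125b. Without ML sample 2 the calls of miR-99b (0.75, adjusted p = 0.10), miR-99a (-0.76, adjusted p = 0.052) and miR-100 (-0.79, adjusted p = 0.055) were lost, and the call of miR-125a-3p was lost with any 1 luminal sample left out (highest adjusted p = 0.13, without ML sample 1).

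For several miRNAs of high level no difference was called. Of the 10 probes with the highest mean value, miR-146b, miR-24 (2.29-fold, adjusted p = 0.0051) and let-7e differed, while miR-200c (0.50, adjusted p = 0.20), miR-191 (0.26), miR-19b (0.20), miR-30b (-0.02), miR-200b (-0.02), let-7c (-0.02) and miR-30c (-0.23) did not pass. The miR-200 family, which holds epithelial identity by targeting Zeb1 and Zeb2, had 0 of 5 members called, against 39.5% of all probes. Its differences ran from -0.11 to 0.84. For miR-200c the 95% confidence interval of the difference ran from -0.15 to 1.15. Of the 11 probes of the miR-17-92 cluster and its paralogs, 1 was higher (miR-93, 0.61) and 1 lower (miR-92a, -0.82, and not called without ML sample 1, adjusted p = 0.13), against 18.9% and 20.6% of all probes. On the U6 scale 5 of the 11 were called higher and 0 lower. The blood cell list had 0 of 5 called, with a median of 0.09, and the Clcn5 intron cluster 0 of 7, with a median of 0.20. Of all probes 39.5% were called.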

How the data were processed

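Reverse transcription used Megaplex stem-loop primers and 12 cycles of pre-amplification, and arrays were read on 2 plates. The authors deposited Ct values (score; 40 for no signal) and log2 expression values, which they made as 40.5 minus Ct followed by cyclic loess (span 0.7, 5 iterations, U6 weighted 100). The deposited log2 values were used, and Ct values served for detection and rescaling. A further deposited table, with the authors' log2 differences, test statistics and p-values for MaSC/basal against luminal cells, was not used.

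Linear models with empirical Bayes moderation (limma 3.58.1, R 4.3.3) were fitted over all 14 samples, with 4 population means and mouse pool as a fixed block (7 residual and 1.54 prior degrees of freedom), and two-sided tests had their p-values corrected over 349 probes (Benjamini-Hochberg, threshold 0.05). The value filter keeps probes high in only 1 population. SDs are between samples. Precision is limited by having 3 samples per luminal population. In a simulated data set of 349 probes, true changes of 1, 2 and 4 log2 units were found for 11, 16 and 18 out of 20 probes each, with 4 false calls among 289. All simulated populations had the luminal spread, independent errors and no floor for undetected probes, and pool effects only in the luminal pools. The simulation therefore checks the fit and does not give the error rate of the calls in the real data.

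ML, LP and MaSC/basal samples with the same number share a mouse pool, per the labels, which pairs them. Deviations from the population means correlated at 0.13, 0.16 and 0.33 in the 3 same-pool ML and LP pairs (median -0.18 in 6 pairs of different pools).

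Probes named are, per direction, the 12 largest called differences detected in all 6 samples without overlap and of 1 sign in all pools, the 5 largest with a Ct of 40 in all samples of the lower population, the 10 of highest level, and members of miRNA lists. Not all of them are described. Members, lists and this rule were chosen with earlier results of these data known. Alternatives changed the block, the samples, the filter, the floor on low values and the scaling, and left out each sample in turn. Sequences and loci are from RefSeq (GRCm38.p6), where 50 names were matched.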

Additional observations from a re-analysis of the deposited data

Results flagged for a closer look

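Among 21 values tested in the 4 MaSC/basal samples, 11 had 1 sample far from the other 3 by Dixon's criterion, which chance passes in about 1 of 20 groups. All 21 were read in the same 4 samples, and the summed lists hold some of the single probes. The 11 are therefore not independent and cannot be weighed against that rate. In all 11 the distant sample was MaSC/basal 4, which does not enter the ML minus LP differences. It was low for miR-1 (14.40 against 18.93 to 19.38), miR-133a (16.96 against 22.59 to 23.63) and miR-133b (12.65 against 18.59 to 19.49), and for the summed striated muscle markers (17.94 against 22.95 to 23.96). It was also low for miR-143 (19.42 against 25.59 to 26.65), miR-145 (21.86 against 28.05 to 29.20), miR-204 (18.72 against 25.48 to 26.00), miR-125b-5p (19.84 against 24.57 to 25.32) and the summed MaSC/basal markers (24.02 against 28.95 to 29.82). It was high for miR-375 (20.68 against 13.79 to 14.61) and miR-592 (19.81 against 13.72 to 14.44).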

How the results depend on the processing

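Of the 138 called differences, 11 changed sign under at least 1 setting, all of them lower probes that turned positive without normalization. Those the rule names are miR-34b-3p (0.01), miR-29c (0.117), miR-199a-3p (0.0703), miR-181c (0.0943) and miR-210 (0.168), and the others, named after their values were seen, are let-7a*, miR-20a*, miR-26b*, miR-491, miR-582-3p and miR-744* (0.0117 to 0.412). With each plate centred let-7a*, miR-20a* and miR-744* also turned positive (0.0186 to 0.189), as did miR-491 on the U6 scale (0.027). With the floor of 5.5 the rat assay miR-466b, whose values all lie under it, has no difference. The count of 138 calls (66 higher, 72 lower) fell to 47 (23 and 24) without the replicate block over 14 samples, to 26 (18 and 8) with the 6 luminal samples and the replicate block, and to 48 (42 and 6) without normalization. Lower calls were 35 on the U6 scale and 44 with plate A alone. The cause of these changes was not tested. The luminal samples alone leave 2 residual degrees of freedom, and plate A alone holds fewer probes. Without the replicate block and without MaSC/basal 4 the count was 109. Leaving out 1 sample at a time gave 92 to 149 calls, 43 to 69 of them higher and 49 to 80 lower. The lowest counts came without ML sample 2 (92, with 43 higher). Other settings, among them a random block (119), no filter (131), a floor of 5.5 (148) and loess over the epithelial samples (105), stayed within 1.5 times. Centring each plate (122), requiring detection in all luminal samples (128) and leaving out MaSC/basal or stromal samples (133 to 149) were chosen after seeing the data. With any 1 luminal sample left out, 84 of the 138 calls were kept throughout. Low levels near a Ct of 40 limit the precision of single probes.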
